A study of Rattus norvegicus with 42 samples.

Results

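The 9 genes described here mark microglia, the resident macrophages of the brain, and their capacity to engulf material. They were taken as the transcripts of the count table whose gene symbol is Cd68, Aif1, Csf1r, Cx3cr1, P2ry12, Tmem119, Itgam, Trem2 or Tyrobp. All 9 symbols were present, each with 1 transcript, among 15516 transcripts of 14304 symbols, and all 9 were among the 13062 transcripts that passed the filter on low counts. The RNA came from hippocampi of Sprague Dawley rat pups, labelled as male, that received a single intraperitoneal injection on postnatal day 7. Vehicle animals (VEH, 13 analysed) received saline, phenobarbital animals (PB, 14) received 75 mg/kg of this barbiturate antiseizure drug, and levetiracetam animals (LEV, 14) received 200 mg/kg of this synaptic vesicle protein ligand. All pups went back to the dam, and 72 hours later, on postnatal day 10, they were perfused with PBS and the hippocampus was taken, with 1 library per animal. Within a treatment group each animal came from a different litter, treatments were balanced within litter, and the animals were bought over 2 orders. The groups thus hold littermates, but the labels do not name the litters, so the fit did not pair them. The sample codes fall into 2 series, animals 1 to 6 of each group (first series) and animals 7 to 14 (second series), which the fit carried as an additive term.

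Microglia depend on signalling through the receptor Csf1r and sense neurons through Cx3cr1, which binds the neuronal ligand fractalkine. In resting tissue they survey their surroundings with fine processes that respond to nucleotides through P2ry12. Phagocytosis uses the complement receptor chain Itgam (CD11b) and the lipid and debris receptor Trem2, which signals through the adaptor Tyrobp (DAP12). Cd68 is a heavily glycosylated protein of late endosomes and lysosomes, widely used as a marker of macrophages that are taking up material.

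Estimated counts summed to between 9499492 and 14488134 per library. At this depth Cd68 had a mean of 23.0 counts per library, for which counting alone gives a coefficient of variation of 20.8%. For the other 8 genes the mean count lay between 59.5 (Trem2) and 887 (Csf1r). A pair of libraries stood apart. In the library labelled VEH animal 1 the Y-linked transcripts Eif2s3y and Ddx3 had 1 and 0 counts, whereas the other 40 animals had 705 to 1028 and 475 to 891, which goes against its label as male. PB animal 2 lay at 30.8 on the second principal component in absolute value, with the other animals at up to 24.2. Both were kept, and values without one or both are given beside Cd68, Cx3cr1, Tmem119 and Tyrobp.

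Cd68 was the one gene of the 9 that passed the test in any comparison. Normalized counts, scaled to a mean effective library, were 10.0 at the lowest, 14.5 at the median and 26.2 at the highest in the VEH animals. In PB animals these values were 14.6, 29.7 and 53.3. In LEV animals they were 13.2, 20.04 and 38.6. The groups overlapped, but 10 of 14 PB animals were above the highest VEH animal and 7 of 13 VEH animals were below the lowest PB animal. The mean was 15.7 ± 4.68 (SD, n = 13) for VEH, 30.9 ± 10.2 (SD, n = 14) for PB and 21.8 ± 6.11 (SD, n = 14) for LEV. As compared to VEH, Cd68 rose 1.96-fold after PB (log2 fold change 0.97, SE 0.17, 95% interval 0.63 to 1.31), with an adjusted p of 0.00064 (edgeR's quasi-likelihood test, Benjamini-Hochberg over all transcripts). To pass, a transcript needed an adjusted p below 0.05 and a 1.25-fold difference or more, which 0.605% of all transcripts did in this comparison and 0.345% did as a rise. All 14 PB animals were above the VEH mean of their own series, and by p value Cd68 ranked 17 among the 13062 transcripts. Tissue was sequenced in bulk, so a difference in the number of microglia and a difference in RNA per cell cannot be told apart.

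**Figure D1:**
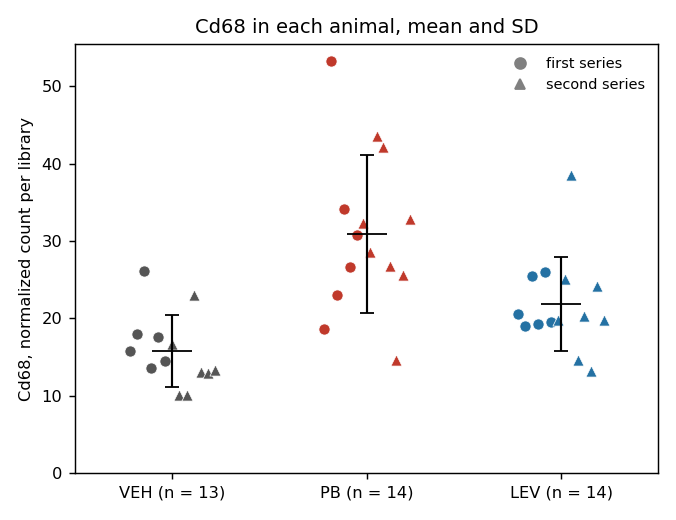
Normalized Cd68 count of each animal (y axis, counts per library scaled to the mean effective library) by treatment group (x axis), with circles for the first series, triangles for the second, and bars for the mean and SD. PB animals reach from 14.6 to 53.3 and VEH animals from 10.0 to 26.2, with LEV animals between them at a mean of 21.8.

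After LEV, the level of Cd68 lay between those of VEH and PB, and neither neighbour in that order was separated from it by the test. Against VEH the log2 fold change was 0.47 (SE 0.17, 95% interval 0.12 to 0.82), and 13 of 14 LEV animals were above the VEH mean of their series. The unadjusted p was 0.0093 and the adjusted p 0.687 (edgeR's quasi-likelihood test, Benjamini-Hochberg), in a comparison where 0.00% of transcripts passed. There, 763 transcripts (5.84%) had an unadjusted p under 0.05, and DESeq2 called 5. Within the first series alone the log2 fold change of Cd68 after LEV was 0.31 (edgeR adjusted p 0.602), in a fit where 170 transcripts passed, and within the second alone it was 0.62 (edgeR adjusted p 0.942), where 6 passed. PB against LEV gave a log2 fold change of 0.50 (SE 0.16, 95% interval 0.18 to 0.83), with 12 of 14 PB animals above the LEV mean of their series. Its unadjusted p was 0.0031, under 0.05 as for 19.6% of all transcripts, and its adjusted p of 0.0594 (edgeR) missed the threshold, with 0.582% of all transcripts passing. This last call turned on single animals, since the adjusted p fell to 0.0386 without PB animal 1, 0.0473 without PB animal 3, 0.0466 without PB animal 5, 0.0285 without PB animal 12 and 0.0181 without LEV animal 9 (edgeR).

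The highest Cd68 value, 53.3, belonged to PB animal 2. With this animal left out the rise after PB was 0.89 on the log2 scale, the lowest value when any of the 41 animals was left out, and the test was passed in all 41 of these fits. Without both PB animal 2 and VEH animal 1 it was also 0.89 (SE 0.17, edgeR adjusted p 0.0025). Within the first series alone the log2 fold change of Cd68 was 0.83 (edgeR adjusted p 0.123), which did not pass the test, and within the second alone it was 1.11 (edgeR adjusted p 0.0142). The difference between the series, 0.28 with an SE of 0.34, had an adjusted p of 0.818 (edgeR).

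Transcript NM_001031638 of Cd68 lies on chromosome 10 from 56268726 to 56270606 in rn6, the build of the count table. Neither of its neighbours in that table passed the test. Mpdu1, at a gap of 1512 bases, had a log2 fold change of -0.0026 after PB (edgeR adjusted p 0.986). Eif4a1, a translation initiation helicase at a gap of 651 bases, had 0.027 (edgeR adjusted p 0.572). No annotated transcript of the table overlapped Cd68.

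RefSeq promoter windows on build GRCr8 were at hand for 5 of the 9 genes, namely Cd68, Csf1r, Cx3cr1, Itgam and Trem2. The 250 bases before the annotated start of Cd68, which rose after PB, and of Itgam, which did not pass the test, are shown to set their letters side by side. They were taken from chr10:54882442-54882691 on the minus strand and chr1:192089342-192089591 on the plus strand, and are written on the strand of each gene. Capitals mark GAGGAA, the core of sites for the myeloid factor PU.1, and TGACTCA, the AP-1 site, each searched on both strands.
Cd68: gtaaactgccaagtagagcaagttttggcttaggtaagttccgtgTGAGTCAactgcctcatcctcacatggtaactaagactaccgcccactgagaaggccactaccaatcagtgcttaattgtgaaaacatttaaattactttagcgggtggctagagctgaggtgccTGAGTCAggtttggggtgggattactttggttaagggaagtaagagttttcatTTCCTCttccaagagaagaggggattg
Itgam: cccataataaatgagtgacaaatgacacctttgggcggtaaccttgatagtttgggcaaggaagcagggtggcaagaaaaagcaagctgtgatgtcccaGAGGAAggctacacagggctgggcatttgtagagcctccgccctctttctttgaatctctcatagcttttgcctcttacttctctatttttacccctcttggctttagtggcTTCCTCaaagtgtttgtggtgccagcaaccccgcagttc
GAGGAA was found once before Cd68, starting 27 bases ahead of the start, and at 151 and 39 bases before Itgam. It was present in 4 of the 5 windows, and 23.3% of the 33469 RefSeq windows of the same length hold it. TGACTCA occurred in the Cd68 window alone of the 5, with 2 matches, at 205 and 80 bases before the start, and 4.05% of all windows hold it. CACGTG, the E-box letters bound by regulators of lysosomal genes, and TATAAA were in 0 of the 5 windows and in 5.59% and 12.9% of all windows. These are letter matches, and no binding was measured.

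None of the other 8 genes passed the test in any comparison. PB against VEH gave log2 fold changes from -0.18 (Aif1) to 0.22 (Trem2) with a median of -0.016, beside a median of 0.0046 over all transcripts. Of these 8 genes, 3 were higher and 5 lower after PB, with adjusted p values from 0.154 to 0.926 (edgeR). LEV against VEH gave -0.21 (Itgam) to 0.070 (Tyrobp), with a median of -0.086 and again 3 higher and 5 lower. PB against LEV gave -0.19 (Aif1) to 0.26 (Tmem119), with a median of 0.073 and with 6 higher and 2 lower. The log2 fold change of Cd68 exceeded the median of the other 8 by 0.99, 0.56 and 0.43 in these comparisons.

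**Figure D2:**
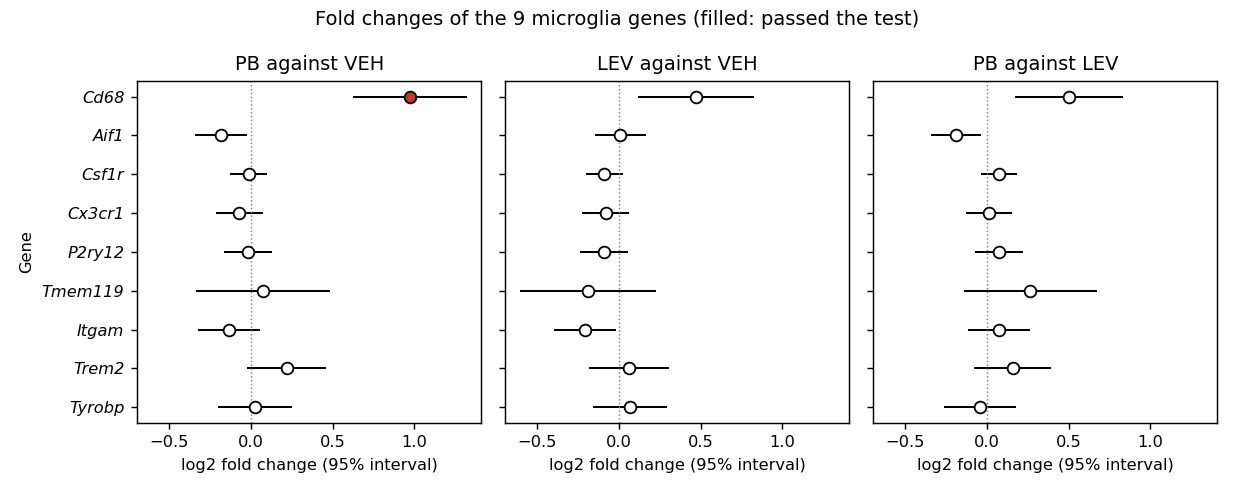
log2 fold change (x axis) of each of the 9 genes (y axis) in the 3 comparisons, with 95% intervals as lines and filled points for those that passed the test. Cd68 after PB, at 0.97, is the one filled point, and in that comparison the intervals of the other 8 genes include 0 except that of Aif1.

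Among the receptors that set microglial identity, Csf1r had the smallest standard errors of the 9 genes. It ranged from 782 over a median of 906 to 1092 normalized counts in VEH animals, from 713 over 887 to 1167 in PB animals and from 713 over 880 to 969 in LEV animals. The groups lay over each other, and the log2 fold change after PB was -0.014 with a 95% interval of -0.12 to 0.092. Cx3cr1, the fractalkine receptor, had a median of 202 in VEH (172 to 231), 193 in PB (125 to 248) and 197 in LEV (156 to 230). Its log2 fold changes were -0.071 after PB (95% interval -0.21 to 0.066) and -0.082 after LEV (-0.22 to 0.055). The lowest Cx3cr1 value, 125, was that of PB animal 2, and without it the log2 fold change after PB was -0.032. P2ry12, the nucleotide receptor, had medians of 188 in both VEH and PB animals and 179 in LEV animals, and its log2 fold changes were -0.018 (95% interval -0.16 to 0.12) and -0.090 (-0.23 to 0.052).

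Tmem119, a surface protein much used to tell microglia from other macrophages, had the largest biological coefficient of variation of the 9 genes over all groups, at 34.4%. VEH animals ranged from 21.4 over a median of 55.0 to 155 normalized counts, PB animals from 32.0 over 68.1 to 100.01 and LEV animals from 29.4 over 54.1 to 86.3. The value of 155 was that of VEH animal 1, far above the other VEH animals. After PB the log2 fold change was 0.072 (95% interval -0.33 to 0.48), and without VEH animal 1 it was 0.27, a value that did not pass the test either. For LEV against VEH it was -0.19 (95% interval -0.60 to 0.22), and 0.0081 without VEH animal 1. The intervals of Tmem119 were the widest of the 9 genes and that for PB against VEH reached past the fold limit, 0.32 on the log2 scale, in both directions.

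Aif1 encodes the cytoskeletal protein Iba1, the common microglial stain. VEH animals ranged from 151 over 185 to 231 normalized counts, PB animals from 121 over 164 to 197 and LEV animals from 127 over 188 to 207. The PB values sat lower within overlapping ranges, with 10 of 14 under the VEH mean for their series and 6 below the lowest VEH animal. The log2 fold change after PB was -0.18 (SE 0.075, 95% interval -0.33 to -0.030), with an unadjusted p of 0.0203 and an adjusted p of 0.154 (edgeR), where 20.2% of all transcripts had an unadjusted p under 0.05. Against LEV it was -0.19 (SE 0.074, edgeR adjusted p 0.132), while LEV against VEH was 0.0081 (95% interval -0.14 to 0.16).

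Itgam, the CD11b chain, had a median of 123 in VEH animals, 119 in PB animals and 114 in LEV animals, with ranges of 97.3 to 157, 73.7 to 151 and 65.7 to 142. Here the LEV animals were the lower ones, 12 of 14 under the VEH mean for their series, and the log2 fold change was -0.21 (SE 0.092, edgeR adjusted p 0.817), which did not pass. After PB it was -0.13 (95% interval -0.32 to 0.051).

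Neither Trem2 nor its adaptor Tyrobp passed the test beside Cd68. Trem2 ranged from 37.6 over 59.0 to 67.6 normalized counts in VEH, from 44.5 over 64.3 to 83.6 in PB and from 33.99 over 59.4 to 76.1 in LEV. PB animals stood higher in 11 of 14 cases, but with 5 of them above the highest VEH animal the ranges still overlapped. The log2 fold change of Trem2 after PB, 0.22 (SE 0.12, 95% interval -0.016 to 0.45), had an adjusted p of 0.291 (edgeR). Of the LEV animals 5 were likewise above the highest VEH animal, with a log2 fold change of 0.061 after LEV. The median of Tyrobp was 67.4 in VEH animals, 65.7 in PB animals and 74.2 in LEV animals. Its highest value, 126, was again PB animal 2. Without this animal the log2 fold change of Tyrobp after PB was -0.048, and for PB against LEV it went from -0.045 to -0.12. With all animals the log2 fold changes of Tyrobp were 0.025 after PB (95% interval -0.20 to 0.25) and 0.070 after LEV (-0.15 to 0.29).

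**Figure D3:**
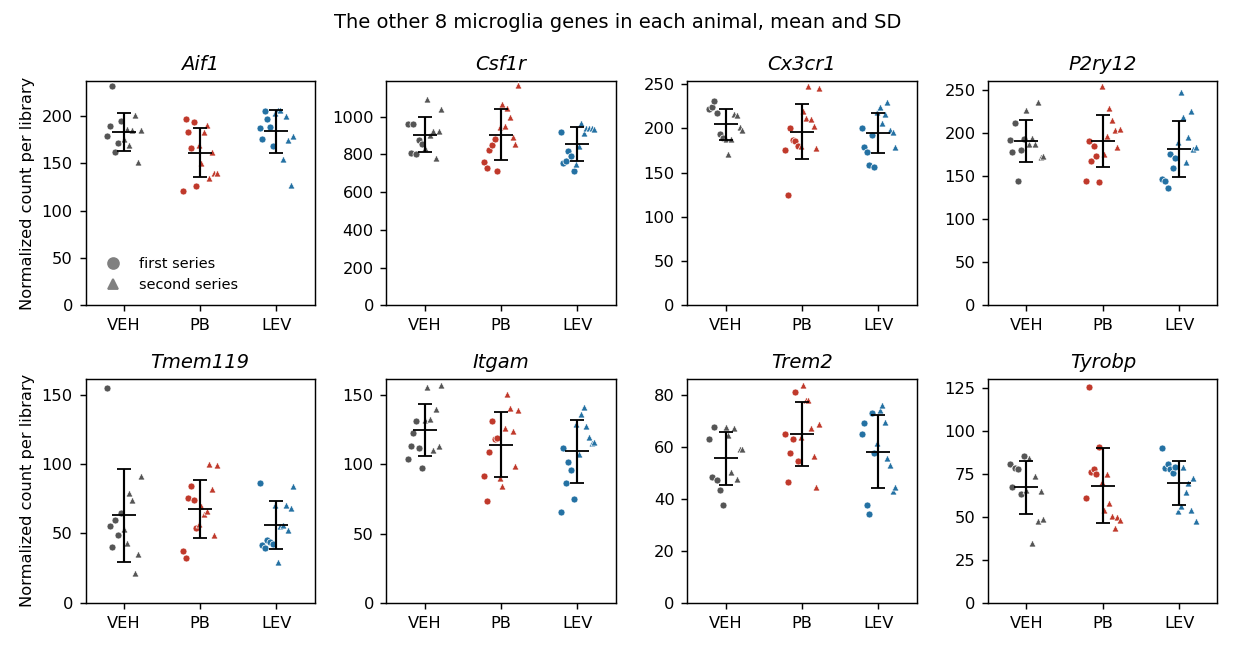
Normalized counts (y axis, counts per library scaled to the mean effective library) of the other 8 genes by animal and treatment group (x axis), with circles for the first series, triangles for the second, and bars for the mean and SD. The 3 groups overlap for every gene, and the single high points are VEH animal 1 for Tmem119 (155) and PB animal 2 for Tyrobp (126).

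Set beside the other microglia genes in the same animal, Cd68 took a larger share after PB. On the log2 CPM scale with the series removed, Cd68 lay below the mean of the other 8 genes by a difference of -3.06 ± 0.31 (SD, n = 13) in VEH, -2.18 ± 0.44 (SD, n = 14) in PB and -2.57 ± 0.33 (SD, n = 14) in LEV. The mean level of the other 8 genes itself was 3.66, 3.65 and 3.60. Cd68 counts came to 8.55% of the Aif1 counts in VEH animals, 19.2% in PB animals and 11.9% in LEV animals. Relative to Csf1r they were 1.76%, 3.48% and 2.56%, and relative to Trem2 28.8%, 49.5% and 39.5%. These percentages are of counts not corrected for transcript length, and serve only to compare the groups. With the level of the other 8 genes as a covariate, the log2 fold change of Cd68 after PB was 0.99 (SE 0.16, edgeR adjusted p 0.00041).

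**Figure D4:**
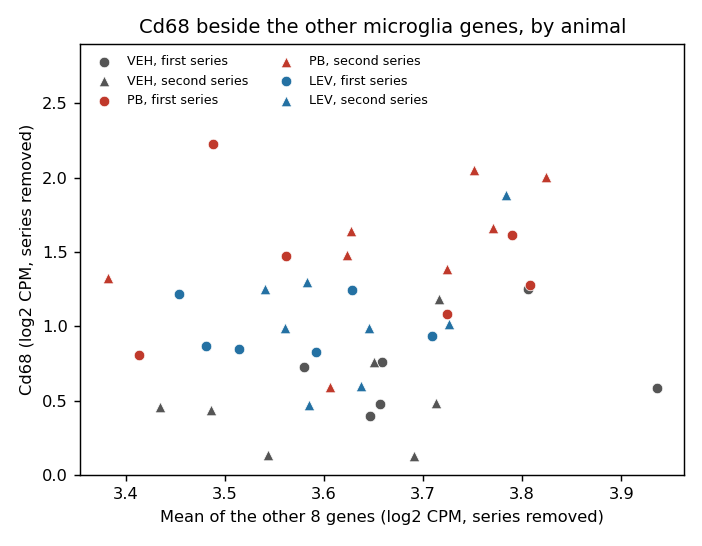
Level of Cd68 (y axis) against the mean level of the other 8 genes (x axis), both in log2 CPM with the series removed, 1 point per animal with colour for the treatment and shape for the series. Most PB points lie above the VEH points over the same stretch of the x axis, where the group means are 3.65 and 3.66.

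The difference between drug and vehicle was also compared between the series for each gene. Csf1r, Cx3cr1 and P2ry12 were lower after PB than after VEH in the first series, at -0.15, -0.28 and -0.13 on the log2 scale, and higher in the second, at 0.093, 0.11 and 0.081. Tmem119 changed in the same way, from -0.25 to 0.36, and Tyrobp the other way, from 0.16 to -0.094. None of these passed the test within its series. The largest difference between series relative to its error was that of Cx3cr1, at 0.39 (SE 0.12, unadjusted p 0.0029) for PB and 0.35 (SE 0.12, unadjusted p 0.0064) for LEV, which share the VEH animals. With adjusted p values of 0.208 and 0.168 (edgeR), neither passed.

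Genes that work with these 9 were taken from lists of their ligands, partners and functions. Nearly all of their members failed the test, as did nearly all transcripts, of which 0.605% passed after PB and 0.00% after LEV. Counts of 0 in lists this short therefore say little about the members. Of 15 tested genes that also mark microglia, such as P2ry13 and Sall1, 0 passed after PB, with 8 higher and 7 lower and a median log2 fold change of 0.0023. Tgfbr1, a receptor for the TGF-beta that microglia need, had 526 ± 45.5 normalized counts in VEH and 606 ± 67.2 in PB, and its log2 fold change of 0.19 (SE 0.046, edgeR adjusted p 0.0103) was under the fold limit. Of the 8 tested transcripts of the ligands, 0 passed. A pair of ligands showed small differences with low p values under the fold limit. The Csf1r ligand Il34 was at 441 ± 46.4 in VEH and 376 ± 49.98 in PB (log2 fold change -0.23, edgeR adjusted p 0.0225), and the Cx3cr1 ligand Cx3cl1 was at 6189 ± 605 and 5319 ± 755 (-0.22, edgeR adjusted p 0.0272). Both ligands were also lower in PB than in LEV animals (-0.28 with an edgeR adjusted p of 0.0063, and -0.23 with 0.0205), again under the fold limit, and neither was below VEH in LEV animals by the test (0.048 and 0.015).

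Receptor partners and signalling proteins, among them Syk, which acts downstream of Tyrobp, gave 0 of 12 passing after PB with a median of 0.020. Engulfment receptors and their bridging ligands, such as Mertk, Axl and Gas6, gave 0 of 9 with a median of 0.12. Of 22 transcripts for lysosomal and phagosomal proteins, the compartment in which Cd68 resides, 0 passed, with 13 higher, 9 lower and a median of 0.023. Lamp1, the lysosomal membrane protein related to Cd68, was at -0.055 (edgeR adjusted p 0.130). For LEV, where 0.00% of all transcripts passed, 0 members of each of these lists did, and medians lay between -0.034 and 0.027.

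Among 12 tested genes that are raised in reactive microglia, 1 rose after PB, where 0.345% of all transcripts did. The median over the list was 0.13, and the gene that rose was Spp1. Spp1 (osteopontin) reached from 26.4 over a median of 42.8 to 135 normalized counts in PB animals and from 19.3 over 35.5 to 47.9 in VEH animals. Its log2 fold change was 0.75 (SE 0.22, edgeR adjusted p 0.0322), and the groups overlapped over most of their range. The call held in 34 of 41 fits with 1 animal left out, and was lost without VEH animals 4, 5 or 13 or PB animals 2, 7, 8 or 10, with adjusted p values of up to 0.091 (edgeR). Fabp5, a fatty acid carrier, was at 0.15 (edgeR adjusted p 0.0524). After LEV 0 of the 12 passed, where 0.00% of all transcripts did, with a median of -0.025.

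**Figure D5:**
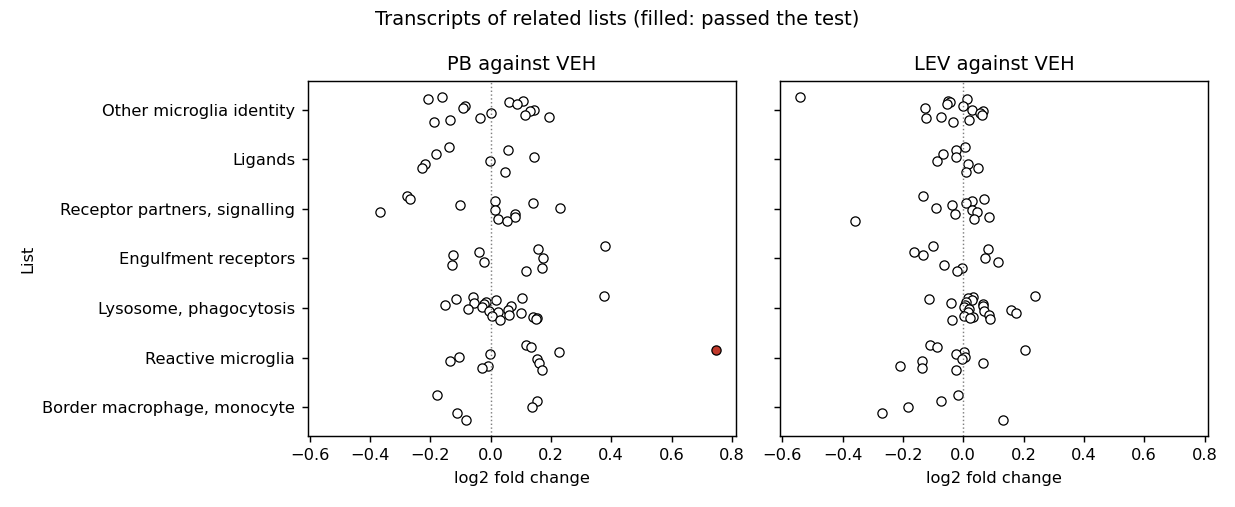
log2 fold change (x axis) of each tested transcript in 7 lists (y axis) after PB and after LEV, 1 point per transcript, filled where the test was passed. The one filled point is Spp1 after PB, at 0.75.

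The study's own list of microglia-associated transcripts held 266, of which 251 were tested. The median log2 fold change of the 251 was 0.024 after PB. Of them, 3 rose and 0 fell by the test, where 0.345% of all transcripts rose. Besides Cd68 these were Cd4, which rat macrophages and microglia carry, and Cd74, the invariant chain of MHC class II. Cd4 reached from 36.1 over 73.3 to 99.9 normalized counts in PB animals and from 32.6 over 43.5 to 58.5 in VEH animals (log2 fold change 0.55, SE 0.13, edgeR adjusted p 0.0106). Cd74 reached from 12.5 over 27.5 to 51.3 and from 13.9 over 19.2 to 29.2 (0.61, SE 0.17, edgeR adjusted p 0.0238). The ranges overlapped for both, and both calls held in all 41 fits with 1 animal left out. In LEV animals 0 of the 251 passed against VEH, where 0.00% of all transcripts did. Between PB and LEV, Cd4 alone passed (0.60, edgeR adjusted p 0.0058), where 0.582% of all transcripts did.

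Other cells that carry Cd68 or some of the 9 genes were followed through their markers. Of 12 markers of border macrophages and monocytes, 10 were counted, Ccr2 and Stab1 were not analysed here, and the summed level lay between 344 and 535 normalized counts in VEH, 306 and 516 in PB and 338 and 584 in LEV. None of the 5 tested passed in any comparison, and Mrc1, the mannose receptor, was at 0.14 after PB (edgeR adjusted p 0.622). With the mean log2 CPM of the 5 tested markers as a covariate, the log2 fold change of Cd68 after PB was 0.99 (edgeR adjusted p 0.000559). Of 6 lymphocyte markers, 3 were counted, and their sum was at most 4.4 in any animal. Hemoglobin and other red blood cell transcripts varied from 214 to 18521 between animals, with 0 of 5 passing in any comparison.

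Choroid plexus transcripts such as Ttr varied from 119 to 84775 in summed level. The 9 tested, of 8 genes, were all higher after PB (median 0.62) and after LEV (median 0.76) than in VEH, with 0 passing. Otx2 was entered more than once among them with the same counts. With the mean log2 CPM of the tested choroid plexus transcripts as a covariate, the log2 fold change of Cd68 after PB was 0.99 (edgeR adjusted p 0.000559), beside 0.97 without it. Skeletal muscle transcripts, another tissue than hippocampus, summed to 116 to 447 in VEH, 68.8 to 161 in PB and 106 to 542 in LEV. The 3 tested, Atp2a1, Myh4 and Acta1, all passed as lower in PB than in VEH (log2 fold changes -2.46, -2.06 and -0.44). They also passed as lower in PB than in LEV (-2.41, -1.93 and -0.47), where 0.582% of all transcripts passed. VEH animals were uneven, from 0 to 71.5 for Atp2a1 and from 0 to 73.3 for Myh4. The part of these muscle transcripts in the Cd68 result was not tested. The astrocyte filament Gfap rose by 0.324 after PB (edgeR adjusted p 0.0024), barely over the fold limit of 0.322 on the log2 scale. It was the one of 15 astrocyte transcripts to pass. Aqp4 was entered more than once among the 15 with the same counts. The neuron, hippocampal neuron, oligodendrocyte, endothelium and immediate early transcripts gave 0, where 0.605% of all transcripts passed. All 8 neuron transcripts, of 6 genes, were lower after PB, 5 at an unadjusted p under 0.05 (edgeR), as 20.2% of all transcripts were in either direction. In both the 8 and the 5, Snap25 was entered more than once with the same counts. Of the 7 endothelium transcripts, 5 were lower, 3 of them at such a p, and 2 were higher.

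Across the 41 animals, with group and series means removed, Cd68 went only loosely with the other members. Spearman's rho of Cd68 with each of the other 8 ran from -0.11 (Itgam) to 0.41 (Tyrobp), with a median of 0.25. Among the 28 pairs of those 8 genes it ran from -0.16 to 0.52, with a median of 0.17. With the other transcripts that had a mean of at least 20 normalized counts, the median for Cd68 was 0.0031. The transcripts most like Cd68 in this measure, among 12226 with a mean of at least 20 normalized counts, were Ppp1r18 (0.57), Chi3l1 (0.54), Xpo5 (0.50) and the complement gene C1qc (0.50), followed by Myh7, Dlx2, Cdc7, Hebp2, Rps7 and Sall1. For the mean of the other 8 genes they were Trim25 (0.60), Snx33, Gal3st4, Sfxn5, Gprc5b, Mthfs, Gad2, Serpine2, Polr2l and Ilvbl. All values within an animal share its library, and these figures are descriptions.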

How the data were processed

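Hippocampal RNA of 41 rat pups was analysed, and VEH animal 7, which its label marks as excluded, was kept out of all comparisons. The authors removed adaptor, poly-N and low-quality reads, aligned paired 150-base reads to rn6 with STAR 2.7.3a and quantified RefSeq transcripts by Partek E/M. The deposited values are estimated counts before normalization, of which 13.7% were not whole, although all those of the 9 genes were. They were rounded, and the tests were run with edgeR 4.0.16 under R 4.3.3 (TMM, filterByExpr by group, glmQLFit and glmQLFTest) in 1 model with the 3 groups and the series, and p values were adjusted by Benjamini-Hochberg over 13062 transcripts. Normalized counts were scaled to a mean effective library of 11405252, and log2 CPM used a prior count of 2. The kit named does not mark strand, and in the GRCr8 annotation P2ry12 overlaps Med12l and Cx3cr1 overlaps LOC134480114. The authors' deposited table of DESeq2 comparisons (p values, fold changes and group means) was not used.

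The 9 genes and all lists were chosen with earlier results of these data known. The rule for naming others was, from each list, the transcripts that passed or the 3 with the smallest p, and the 10 most like Cd68 or the other 8 genes. Not all transcripts under this rule are named above, and some outside it, such as P2ry13 and Ttr, are named as examples of their list. A transcript that this rule would name is not reported here. Alternatives were DESeq2 1.42.0, its size factors, other filters and models, covariates, a block for the animal number, either series by itself and each animal left out. DESeq2 without its filtering and the joint removal of VEH animal 1 and PB animal 2 were chosen after seeing the data. The test was tried on simulated counts. Intervals cover the spread between animals, and depth sets a floor under the precision of Cd68.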

Additional observations from a re-analysis of the deposited data

Results flagged for a closer look

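The excluded VEH animal enters no comparison, but its library was deposited. There Csf1r stood at 1461, Cx3cr1 at 476 and Tmem119 at 182 normalized counts, each above all 41 animals analysed, for which the VEH medians were 905, 201 and 55.0. Cd68, at 9.42, was below all VEH animals. Aif1 and P2ry12 lay within the VEH range. Its Y-linked transcripts Eif2s3y and Ddx3 had 115 and 204 counts. With a single such animal, no test applies.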

How the results depend on the processing

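Cd68 passed the test for PB against VEH in 15 of the 16 alternatives that gave it an adjusted p. The 15 include both settings chosen after seeing the data. Over the 16 the log2 fold changes were 0.83 to 1.11, and the first series alone did not pass (0.83, edgeR adjusted p 0.123, with fewer animals). Outside this count, DESeq2 gave Cd68 no adjusted p (log2 fold change 0.98, unadjusted p 8e-08), so it did not pass there. DESeq2 without its filtering, which is in the count, gave an adjusted p of 3.7e-05. Requiring a mean of 50 counts removed Cd68, so that setting is outside the count too. With 1 animal left out it was 0.89 to 1.05 for PB against VEH, 0.38 to 0.55 for LEV against VEH and 0.42 to 0.60 for PB against LEV.

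The number of transcripts that passed was 79 for PB against VEH, 0 for LEV against VEH and 76 for PB against LEV. With 1 animal left out it ran from 52 (without PB animal 7) to 115, from 0 to 4 (without VEH animal 4) and from 39 (without PB animal 7) to 101, with 50 without LEV animal 2. LEV against VEH gave 5 with DESeq2, with or without its filtering, 1 without a filter or with a mean of 50 counts, and 5 with series-by-treatment terms. PB against LEV gave 36 with DESeq2 and 34 with the excluded animal kept. The first series alone gave 17, 170 and 24, and the second gave 168 and 6 in the first 2 comparisons. Without a fold limit the numbers were 704, 1 and 581. The cause was not tested.

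The other 8 genes passed in no alternative, but values near 0 changed sign. In the first series alone these were Tmem119 at -0.25 (PB against VEH), Aif1 at -0.00181 (LEV against VEH) and, for PB against LEV, Csf1r at -0.00726, Cx3cr1 at -0.014 and Tyrobp at 0.068. In the second series alone they were Csf1r at 0.093, Cx3cr1 at 0.11, P2ry12 at 0.081 and Tyrobp at -0.094 (PB against VEH), Cx3cr1 at 0.080, P2ry12 at 0.028 and Tmem119 at 0.088 (LEV against VEH) and Itgam at -0.055 (PB against LEV). Keeping the excluded animal gave Tmem119 at -0.10 (PB against VEH), and the border macrophage covariate Cx3cr1 at -0.00286 (PB against LEV). Without VEH animal 1 and PB animal 2, Csf1r was at 0.017 and Tyrobp at -0.041 (PB against VEH), and Tmem119 at 0.00864 (LEV against VEH). With 1 animal left out, ranges spanning 0 were, for PB against VEH, Csf1r -0.039 to 0.0041, P2ry12 -0.045 to 0.0077, Tmem119 -0.010 to 0.27 and Tyrobp -0.048 to 0.079; for LEV against VEH, Aif1 -0.011 to 0.040 and Tmem119 -0.27 to 0.0081; and for PB against LEV, Cx3cr1 -0.013 to 0.046.

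Animals with the same number did not deviate together as a rule (40 pairs, median correlation -0.039). The correlations ran from -0.35 to 0.28, with 11 over 0.1 and 15 below -0.1. Number 8 was positive in each pairing of the groups, at 0.25 to 0.28, and so was number 11, at 0.15 to 0.25. The labels do not say whether a shared number means a shared litter, so the pairing by litter was not tested. With the replicate block, Cd68 after PB was 0.95 (edgeR adjusted p 0.0029), 55 transcripts passed for PB against VEH, and Aif1 for LEV against VEH was at -0.0060. Few counts of Cd68 per library limit its precision.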
